A study of Homo sapiens with 5 samples.

Results

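The genes that encode the constitutive proteasome were examined in ChIP-seq peak lists of the transcription factors IRF3 and Smad3. Members were the protein-coding genes of RefSeq (GRCh38.p14, the coordinates of hg38) whose symbol is PSMA, PSMB, PSMC, PSMD, PSME, PSMF or PSMG followed only by a number, leaving out the immunoproteasome genes PSMB8, PSMB9 and PSMB10. The rule gave 45 of 20037 protein-coding genes. PSMA8 and PSMB11 satisfy it, although they are best known from testis and thymus. Expression was not measured, so whether each gene is constitutively active in these cells was not tested.

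The proteasome degrades proteins tagged with ubiquitin. Its 20S core is a barrel of alpha and beta rings, with the catalytic sites in the beta rings, and the 19S particle on its ends recognises, unfolds and admits substrates through a base of ATPases and a lid. Other activators and an inhibitor bind the core, and dedicated chaperones help to assemble it. Interferon replaces the catalytic beta subunits by those of the immunoproteasome and raises the activator pair PSME1 and PSME2, which favours the making of peptides for MHC class I. When proteasome activity is short, the factor NFE2L1 raises the constitutive subunits together.

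All libraries came from the cell line BT549, derived from a breast cancer of basal-like type, in which lentiviral vectors gave stable expression of caSmad3, read here as constitutively active Smad3, or of HA as control. PolyI:C, a synthetic double-stranded RNA, stands in for viral RNA, to which IRF3 responds, and Smad3 carries the TGF-beta signal. There were 5 groups of 1 library each. IRF3 was precipitated from caSmad3 cells and from HA cells, both transfected with polyI:C and given no TGF-beta. Smad3 was precipitated from caSmad3 cells treated in that same way. It was also precipitated from HA cells that received TGF-beta (1 ng/ml for 1.5 h), either with polyI:C or after mock transfection. Whether the lines are clones is not given in the sources used here. For Smad3, active Smad3 and the lack of TGF-beta cannot be told apart.

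The lists held 8067 IRF3 peaks in caSmad3 cells and 4125 in HA cells, and 6041, 786 and 353 Smad3 peaks in the order of the groups above. A peak has a position and a width and no height, and the read depth is unknown. Each group is 1 library, so differences between conditions have no test here, and a gene without a peak is not shown to be unbound. The identity of the line cannot be checked from peak positions. Intervals are exact 95% Clopper-Pearson intervals and cover counting error only. A gene was counted when a peak reached to within 1 kb of its lower or upper end.

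Promoters are shown first for the 5 members with a match to the interferon response pattern, GAAA followed after any 2 bases by a further GAAA, which is of the kind bound by interferon regulatory factors. The RefSeq windows (GRCh38.p14) run from 250 bases before to 50 after a listed transcription start and are written 5′ to 3′ on the gene's strand. Capitals mark the match, which reads as its reverse complement in PSME1.
PSMA4 (chr15:78540155-78540454, plus strand): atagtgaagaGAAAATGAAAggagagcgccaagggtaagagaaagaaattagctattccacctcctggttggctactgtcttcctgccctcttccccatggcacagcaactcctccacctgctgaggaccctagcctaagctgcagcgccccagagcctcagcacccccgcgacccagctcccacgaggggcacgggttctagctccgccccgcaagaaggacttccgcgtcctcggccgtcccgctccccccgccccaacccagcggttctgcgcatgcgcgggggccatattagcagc
PSMB4 (chr1:151399323-151399622, plus strand): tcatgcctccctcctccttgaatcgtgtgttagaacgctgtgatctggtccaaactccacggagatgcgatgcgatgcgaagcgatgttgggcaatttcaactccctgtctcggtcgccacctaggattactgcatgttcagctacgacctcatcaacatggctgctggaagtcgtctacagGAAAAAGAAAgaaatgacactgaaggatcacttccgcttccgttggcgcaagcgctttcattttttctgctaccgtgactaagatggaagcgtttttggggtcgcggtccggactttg
PSME1 (chr14:24135944-24136243, plus strand): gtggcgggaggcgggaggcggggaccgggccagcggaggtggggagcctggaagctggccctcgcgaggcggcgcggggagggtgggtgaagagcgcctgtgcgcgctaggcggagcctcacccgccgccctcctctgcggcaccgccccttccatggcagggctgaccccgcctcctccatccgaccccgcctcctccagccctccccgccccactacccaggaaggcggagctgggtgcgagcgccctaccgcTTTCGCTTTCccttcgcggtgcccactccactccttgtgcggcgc
PSME2 (chr14:24146561-24146860, minus strand): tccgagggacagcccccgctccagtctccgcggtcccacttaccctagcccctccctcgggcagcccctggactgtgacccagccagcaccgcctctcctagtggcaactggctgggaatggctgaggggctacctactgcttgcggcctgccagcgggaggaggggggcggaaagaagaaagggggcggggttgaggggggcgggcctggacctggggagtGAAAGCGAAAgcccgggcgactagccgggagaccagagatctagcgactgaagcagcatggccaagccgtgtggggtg
PSMG4 (chr6:3258697-3258996, plus strand): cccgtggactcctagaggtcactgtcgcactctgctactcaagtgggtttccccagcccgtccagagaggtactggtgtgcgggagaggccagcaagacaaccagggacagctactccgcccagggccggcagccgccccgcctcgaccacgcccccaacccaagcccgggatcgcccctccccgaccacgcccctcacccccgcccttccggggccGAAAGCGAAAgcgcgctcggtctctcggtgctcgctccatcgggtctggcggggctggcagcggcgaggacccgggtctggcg

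The promoters of PSMA3 and PSMD11 are shown because they carried peaks in 4 of the 5 lists. Capitals mark the bases that lay inside a peak of the IRF3 lists and of the Smad3 lists of caSmad3 cells and of HA cells given polyI:C. They cover 33 bases at PSMA3 and 125 at PSMD11. At PSMD11 the shared stretch runs on past the end of the window, to 32444578, and at PSMA3 it ends inside the window.
PSMA3 (chr14:58244593-58244892, plus strand): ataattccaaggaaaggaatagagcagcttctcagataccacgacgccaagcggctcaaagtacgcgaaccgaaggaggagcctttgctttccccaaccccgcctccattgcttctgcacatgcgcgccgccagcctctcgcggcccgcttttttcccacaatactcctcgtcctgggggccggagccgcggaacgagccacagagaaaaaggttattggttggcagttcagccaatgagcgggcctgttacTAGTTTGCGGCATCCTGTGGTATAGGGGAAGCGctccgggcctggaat
PSMD11 (chr17:32444260-32444559, plus strand): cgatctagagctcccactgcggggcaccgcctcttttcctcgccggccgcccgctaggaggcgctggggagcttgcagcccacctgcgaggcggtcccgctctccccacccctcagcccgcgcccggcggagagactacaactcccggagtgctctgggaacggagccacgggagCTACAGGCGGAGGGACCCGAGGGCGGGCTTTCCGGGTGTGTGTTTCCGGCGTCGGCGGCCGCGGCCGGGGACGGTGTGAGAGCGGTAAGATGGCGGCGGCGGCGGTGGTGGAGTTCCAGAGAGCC

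IRF3 peaks lay at most of the proteasome genes in caSmad3 cells and at fewer in HA cells. In caSmad3 cells 31 of 45 members had a peak (68.9%, 53.4 to 81.8), against 31.1% of all protein-coding genes. In HA cells it was 17 of 45 (37.8%, 23.8 to 53.5), against 17.0% of all genes. Both IRF3 lists held a peak at 16 members (35.6%, against 16.0% of all genes), the caSmad3 list alone at 15 (33.3%, against 15.1%) and the HA list alone at 1 (2.22%, against 0.968%). Of the 17 members counted in HA cells, 16 were also counted in caSmad3 cells (94.1%, 71.3 to 99.9), and the share for all protein-coding genes was 94.3%. Of the 31 counted in caSmad3 cells, 51.6% were also counted in HA cells, where all genes gave 51.5%. The members thus carried IRF3 peaks more often than the average gene in each list, while the split between the lists was close to that of all genes.

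Smad3 peaks were fewer, and those found at members in caSmad3 cells each sat on an IRF3 peak. In caSmad3 cells 10 of 45 members had a Smad3 peak (22.2%, 11.2 to 37.1), against 10.6% of all genes. In HA cells it was 2 after polyI:C with TGF-beta (4.44%, 0.543 to 15.1), against 0.883% of all genes. After mock transfection with TGF-beta it was 0 of 45, which allows a share of up to 7.87%, against 0.245% of all genes. Members with both factors in caSmad3 cells were thus 10 (22.2%, against 8.94% of all genes). Members with Smad3 but not IRF3 there were 0, which allows up to 7.87% (against 1.64% of all genes). Over all protein-coding genes with a Smad3 peak in caSmad3 cells, 84.5% also had an IRF3 peak there. By position, 10 of these 10 Smad3 peaks at members shared at least 1 base with IRF3 peaks of caSmad3 cells (lower bound 69.2%). With IRF3 peaks of HA cells 8 did so (80.0%, 44.4 to 97.5). For Smad3 peaks at the ends of other protein-coding genes the corresponding shares were 69.7% and 47.7%. No peak of any list lay at 13 members (28.9%, against 66.3% of all genes). When at least 50% of both peaks had to be shared, 50.0% of the 10 Smad3 peaks met this with IRF3 peaks of caSmad3 cells. That share was not counted for peaks at other genes. Conversely, 11 of the 40 IRF3 peaks at members in caSmad3 cells overlapped a Smad3 peak there (27.5%), and 21.9% did so at other genes.

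**Figure D1:**
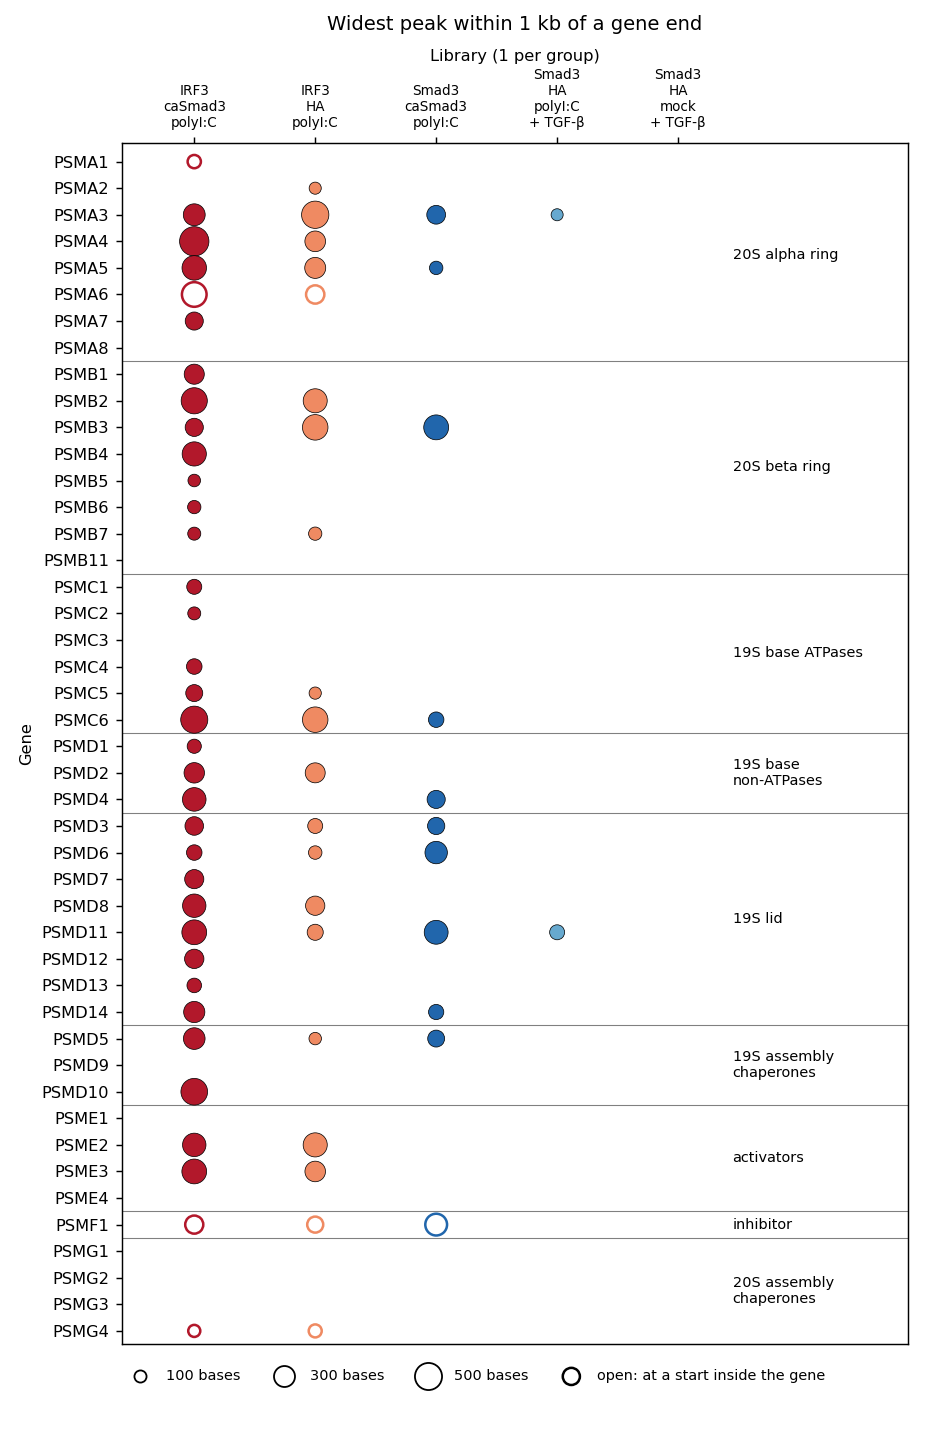
Rows are the 45 proteasome genes by subcomplex and columns are the 5 libraries. The area of a filled circle is in proportion to the width in bases of the widest peak within 1 kb of a gene end, and open circles show peaks at a transcription start inside the gene for 4 genes with none at an end. IRF3 peaks are listed at 31 genes in caSmad3 cells and at 17 in HA cells, and the mock-transfected column is empty.

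By subcomplex, each member of the lid and of the non-ATPase part of the base had an IRF3 peak. ADRM1 and SEM1, 19S subunits without a PSM symbol, are not members and had no IRF3 peak in either list. The lid holds PSMD14, the enzyme that removes ubiquitin chains, with its partner PSMD7. All 8 lid members carried an IRF3 peak in caSmad3 cells, 4 of them in HA cells as well. The 3 non-ATPase members of the base, PSMD1, PSMD2 and the ubiquitin receptor gene PSMD4, all had one in caSmad3 cells. PSMD2 also had one in HA cells. Of the 6 ATPase genes, whose products unfold substrates, the caSmad3 list held 5 and the HA list 2. The beta ring counted 7 of 8 and 3 of 8, and the alpha ring 4 of 8 in each list. The chaperones of the 19S particle counted 2 and 1 of 3. The activators counted 2 of 4 in each list, while the inhibitor gene PSMF1 and the 4 genes of core assembly chaperones had no peak at a gene end. Groups of this size differ by few genes, and no test was made between them.

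**Figure D2:**
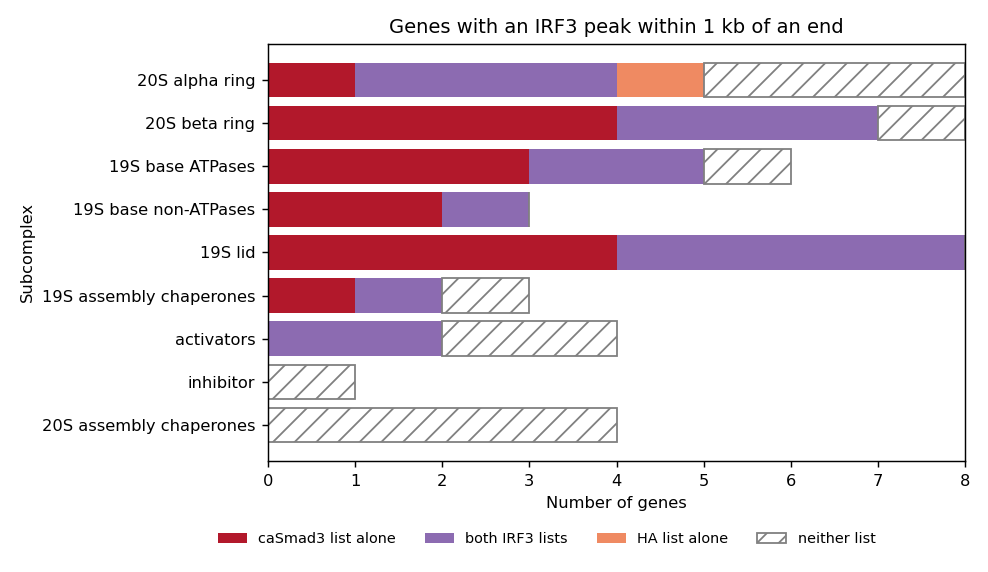
Stacked bars count the genes of each subcomplex by whether IRF3 peaks near a gene end were in the caSmad3 list alone, in both lists, in the HA list alone or in neither. All 8 lid members are counted, 4 of them in both lists, and the 4 members that are core assembly chaperones are in neither.

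In the alpha ring, which gates the core, PSMA3 had the most peaks. Its IRF3 peaks were 326 bases (chr14:58244627-58244952) and 120 bases (58245005 to 58245124) in caSmad3 cells. In HA cells they were 507 bases (58244607 to 58245113) and 134 bases (58244407 to 58244540). The broad HA peak overlapped both caSmad3 peaks, and it was the widest IRF3 peak at any member in HA cells. Smad3 peaks at PSMA3 were 240 bases wide (58244845 to 58245084) in caSmad3 cells and 99 bases (58244779 to 58244877), the least width in the list, in HA cells given polyI:C. PSMA4 carried the widest IRF3 peak of any member in caSmad3 cells with 587 bases (chr15:78540174-78540760), and 291 bases (78540270 to 78540560) in HA cells. Both lay over the lower gene end, which is a listed start.

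PSMA5 had 1 IRF3 peak of 409 bases over its start in caSmad3 cells (chr1:109426224-109426632) where HA cells had 300 bases (109426394 to 109426693) and 134 bases (109426198 to 109426331). Its Smad3 peak in caSmad3 cells was 123 bases wide (109426223 to 109426345). A further caSmad3 IRF3 peak of 177 bases (109398129 to 109398305) lay beyond the other end of PSMA5, 737 bases from it and 211 bases from an end of SORT1. PSMA7 had a peak of 223 bases in caSmad3 cells alone. PSMA2 was the only member counted in HA cells and not in caSmad3 cells, through a peak of 100 bases (chr7:42932399-42932498). That peak lay 225 bases from PSMA2 and 23 bases from MRPL32, a mitochondrial ribosomal protein gene.

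In the beta ring, PSMB3, a non-catalytic subunit, was the only member with a Smad3 peak, of 422 bases (chr17:38752531-38752952), the widest Smad3 peak at any member. Its IRF3 peak was 225 bases (38752611 to 38752835) in caSmad3 cells and 444 bases (38752433 to 38752876) in HA cells. The catalytic subunits are PSMB5, PSMB6 and PSMB7. PSMB5 had a caSmad3 peak of 108 bases and PSMB6 one of 121 bases, each with none in HA cells. PSMB7 had 116 bases in caSmad3 cells and 120 bases in HA cells. These are among the narrowest peaks of the family. PSMB2 had 466 and 393 bases in caSmad3 and HA cells, and PSMB4 had 399 bases in caSmad3 cells alone. PSMB1 had 2 peaks in caSmad3 cells alone, of 255 bases over its upper end (chr6:170553104-170553358) and of 275 bases (170554288 to 170554562) over the end of its neighbour TBP. PSMB11 had none, with the nearest caSmad3 IRF3 peak 7268 bases away.

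Among the ATPases, PSMC6 carried broad IRF3 peaks in both lists, of 500 bases (chr14:52706831-52707330) in caSmad3 cells and 443 bases (52706853 to 52707295) in HA cells. It was also the only ATPase gene with a Smad3 peak, of 163 bases (52707208 to 52707370) in caSmad3 cells. PSMC5 had caSmad3 peaks of 169 bases (chr17:63827423-63827591) and 197 bases (63826832 to 63827028) and an HA peak of 102 bases (63827481 to 63827582). They lay within 1 kb of FTSJ3 as well. PSMC4 had 2 caSmad3 peaks, of 165 bases (chr19:39970893-39971057) and 144 bases (39971188 to 39971331), on either side of its start. PSMC1 (154 bases) and PSMC2 (115 bases, over the end of PMPCB too) were in the caSmad3 list alone. PSMC3 had no peak, and the nearest of any list was a caSmad3 Smad3 peak 10382 bases away.

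Among non-ATPase base members, PSMD2 had caSmad3 peaks of 285 bases (chr3:184298725-184299009) upstream of its start and 268 bases (184299177 to 184299444) over it. In HA cells PSMD2 had 272 bases (184298793 to 184299064). The HA peak overlapped the upstream peak and not the one over the start. PSMD4 had an IRF3 peak of 379 bases (chr1:151254497-151254875) and a Smad3 peak of 224 bases (151254452 to 151254675) in caSmad3 cells, with none in HA cells. PSMD1 had a caSmad3 peak of 137 bases alone.

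In the lid, PSMD11 was listed in 4 libraries at nearly the same place. Its IRF3 peaks were 419 bases (chr17:32444327-32444745) in caSmad3 cells and 176 bases (32444435 to 32444610) in HA cells. Smad3 gave 388 bases (32444328 to 32444715) in caSmad3 cells and 153 bases (32444426 to 32444578) in HA cells given polyI:C. All 4 peaks lay over the start of PSMD11. PSMD3 had IRF3 peaks of 235 bases (chr17:39980815-39981049) in caSmad3 cells and 153 bases (39980827 to 39980979) in HA cells, and a Smad3 peak of 203 bases (39980778 to 39980980) in caSmad3 cells. PSMD14 had an IRF3 peak of 306 bases (chr2:161308103-161308408) and a Smad3 peak of 158 bases (161308190 to 161308347) inside it, both in caSmad3 cells.

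PSMD6 was the only member counted in both IRF3 lists through peaks that did not overlap. They were 164 bases (chr3:64023381-64023544) in caSmad3 cells and 124 bases (64023231 to 64023354) in HA cells, and a Smad3 peak of 342 bases (64023254 to 64023595) in caSmad3 cells overlapped both. PSMD8 had 373 bases (chr19:38374615-38374987) and 167 bases (38374259 to 38374425) in caSmad3 cells and 253 bases (38374730 to 38374982) in HA cells. PSMD7 had 250 bases (chr16:74296460-74296709) and 191 bases (74296847 to 74297037), PSMD12 had 255 bases and PSMD13 had 145 bases, all in caSmad3 cells alone. The peak at PSMD13 lay 31 bases from SIRT3, a neighbour.

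The chaperones that help to build the 19S base differed among themselves. PSMD10, also known as gankyrin, had an IRF3 peak of 485 bases (chrX:108091329-108091813) in caSmad3 cells, among the 3 widest of the family there, and none in HA cells. PSMD5 had 319 bases (chr9:120842795-120843113) in caSmad3 cells, where HA cells had peaks of 105 bases (120842814 to 120842918) and 106 bases (120843058 to 120843163) that each overlapped it. Its Smad3 peak in caSmad3 cells was 195 bases wide (120842827 to 120843021). PSMD9 had no peak, and the nearest lay 85481 bases away.

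Among the activators, neither gene of the interferon-inducible pair had an IRF3 peak over its start. PSME1 had no peak within 1 kb of an end. The nearest IRF3 peaks were 2391 bases away in caSmad3 cells and 2369 bases away in HA cells. PSME2 was counted in both lists, with 374 bases (chr14:24146933-24147306) in caSmad3 cells and 396 bases (24146823 to 24147218) in HA cells. These lay 323 and 213 bases outside PSME2. Their distances to RNF31, a subunit of the ligase that makes linear ubiquitin chains, were 58 and 0 bases, so both were nearer to the neighbour. PSME3, which encodes a nuclear activator, had 418 bases (chr17:42833219-42833636) and 216 bases (42832902 to 42833117) in caSmad3 cells and 288 bases (42833333 to 42833620) in HA cells. PSME4, another nuclear activator, had no peak, with the nearest 96141 bases away in caSmad3 cells.

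For 4 of the 13 members with no peak at a gene end, IRF3 peaks lay at a listed transcription start inside the gene. They were PSMA1, PSMA6, PSMF1 and PSMG4. PSMA1, PSMA6 and PSMG4 had no listed start within 1 kb of the end of the gene where transcription begins, as did 8.04% of 15843 protein-coding genes. At PSMA6 the caSmad3 list had 414 bases (chr14:35292245-35292658) over the starts and 175 bases (35291981 to 35292155), and the HA list had 228 bases (35292342 to 35292569) and 100 bases (35291963 to 35292062), at least 13405 bases from either end of the gene. At PSMF1, the inhibitor, the caSmad3 list had 223 bases (chr20:1118569-1118791) over the start at 1118602 and 198 bases (1118298 to 1118495), and the HA list had 162 bases (1118537 to 1118698) and 175 bases (1118298 to 1118472). A Smad3 peak of 323 bases (1118380 to 1118702) in caSmad3 cells overlapped all 4 of these. PSMG4, a core assembly chaperone, had 99 bases (chr6:3258970-3259068) in caSmad3 cells and 115 bases (3258955 to 3259069) in HA cells, and PSMA1 had 120 bases (chr11:14520348-14520467) in caSmad3 cells alone.

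With listed starts counted beside gene ends, a choice made after seeing the data, IRF3 peaks lay at 35 members in caSmad3 cells (77.8%, against 32.8% of all genes) and at 20 in HA cells (44.4%, against 17.9%), and Smad3 peaks at 11 in caSmad3 cells (24.4%, against 11.5%). Smad3 peaks in HA cells stayed at 2 members with polyI:C (against 1.0%) and 0 after mock transfection (against 0.27%). Both IRF3 lists then held 19 members (42.2%, against 16.9%), the caSmad3 list alone 16 (35.6%, against 15.9%) and the HA list alone 1, PSMA2 (2.22%, against 1.01%). The 9 members with a peak in no list by either measure were PSMA8, PSMB11, PSMC3, PSMD9, PSME1, PSME4, PSMG1, PSMG2 and PSMG3. No start was listed for PSMG3. PSMG1 and PSMG2 form 1 of the chaperone pairs of the core, and PSMG3 belongs to the other with PSMG4.

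**Figure D3:**
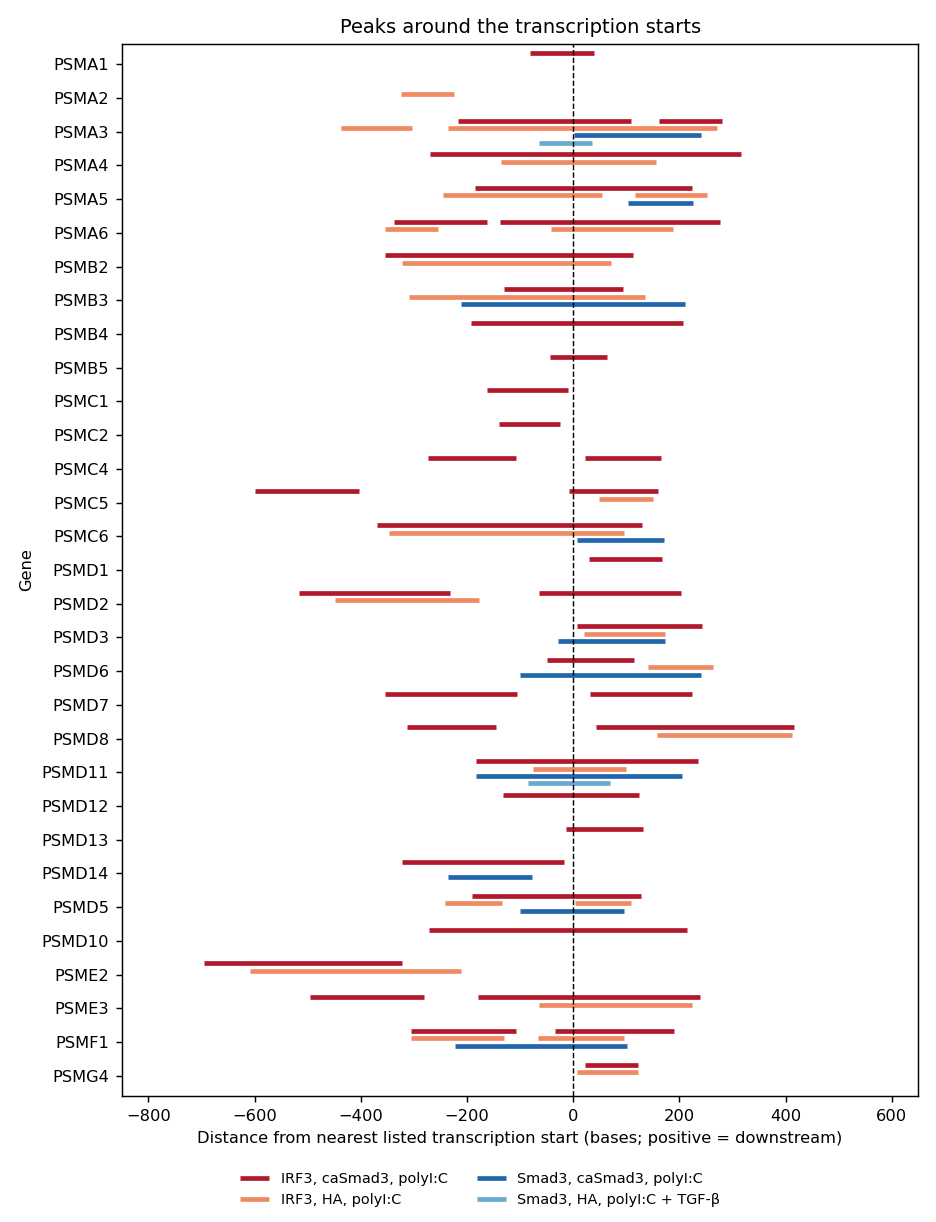
Each bar spans a peak at a proteasome gene, placed by its distance in bases from the nearest listed transcription start, with positive values downstream. The 31 genes shown have a listed start and a peak within 1 kb of it. Peaks were chosen near gene ends or starts, so bars near the start follow in part from that choice. The bars of PSME2 and PSMA2 lie upstream of the start.

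Most peaks counted at members lay close to a listed transcription start. Peaks were counted within 1 kb of a gene end, which is often a listed start, so this follows in part from the rule. The same share for peaks at other genes was not counted. A listed start was known for 34 of the 40 caSmad3 IRF3 peaks, and 29 of these had their centre within 250 bases of it, 17 of the 34 upstream and 17 downstream. In HA cells it was 14 of 19, and for Smad3 in caSmad3 cells 9 of 9. The caSmad3 peak beyond the far end of PSMA5 was the only one more than 1 kb from a listed start. Another protein-coding gene also had an end within 1 kb of a peak at 7 of the 31 members in caSmad3 cells (22.6%) and 3 of the 17 in HA cells (17.6%), and for all genes the shares were 37.8% and 39.3%. None of the 10 members with a Smad3 peak in caSmad3 cells shared it in this way, against 40.7% of all genes with such a peak. That count rests on 10 members only.

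Median widths at members were above those at other genes in the IRF3 lists and in the Smad3 list of caSmad3 cells. The differences were not tested. The median over the 40 caSmad3 IRF3 peaks at members was 242.5 bases, against 226.0 bases at the ends of other genes, and over the 20 HA peaks it was 214.5 bases, against 185.0 bases. The 10 Smad3 peaks of caSmad3 cells had a median of 213.5 bases, against 168.0 bases. The 2 Smad3 peaks of HA cells given polyI:C went the other way, with 126.0 bases against 148.0 bases. Among the 16 members in both lists, the widest IRF3 peak was wider in caSmad3 cells at 12 and wider in HA cells at PSMA3, PSMB3, PSMB7 and PSME2. For other genes 84.5% were wider in caSmad3 cells. The 15 members in the caSmad3 list alone had narrower peaks there (median of the widest 223 bases, range 108 to 485) than the 16 in both lists (349.5 bases, 116 to 587). Other genes showed the same order, with 190 and 348 bases. The part of read depth in these widths was not tested.

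Matches to the interferon pattern, on either strand, occurred in 5 of the 39 members' promoters in the table (12.8%), against 3.17% of 15843 promoters of protein-coding genes and 3.02% of the promoters of other genes with an IRF3 peak. Only the match of PSMB4, which began 68 bases before the start, lay wholly inside an IRF3 peak, in caSmad3 cells. At PSMA4 the caSmad3 peak began on the last base of the match. At PSMG4 the match lay 47 bases from the caSmad3 peak and 32 bases from the HA peak, and at PSME2 it lay 295 and 185 bases away. At PSME1 the nearest peaks were 5145 and 5123 bases from it. A match describes the sequence and is not shown to be a site, and the count rests on 5 genes.

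Other patterns were counted in the same windows on both strands, and matches of different patterns may share bases. Each share of the 39 members' promoters is given beside that of all promoters and then that of other genes with an IRF3 peak. TGANNNNGC, a loose form of the antioxidant response type bound by NFE2L1 and its relatives, was in 24 (61.5%, against 42.6% and 44.6%). It leaves every base between TGA and GC free, so matches can include sequences that these factors do not bind. CCGGAAG, of the ETS type, was in 13 (33.3%, against 14.2% and 26.0%), and CCAAT was in 18 (46.2%, against 36.4% and 40.2%). GGGCGG, of the Sp1 type, was in 26 (66.7%, against 58.5% and 71.6%), above all promoters and below those of other genes with an IRF3 peak. The palindrome of the nuclear respiratory factor type was in 1, PSMA4 (2.56%, against 1.75% and 3.73%), and CACGTG was in 3 (7.69%, against 8.88% and 10.8%). AGTTTC, a short interferon type, was in 8 (20.5%, against 13.7% and 13.2%). Among patterns of Smad type, GGCGC was in 30 (76.9%, against 62.6% and 79.1%), CAGACA in 3 (7.69%, against 14.5% and 11.2%) and the palindrome GTCTAGAC in 0 (against 0.221% and 0.149%). TGANTCA, the AP-1 type, was in 1 (2.56%, against 5.75% and 3.6%). For GGCGC and AGTTTC the order against all promoters turned round in the last 150 bases of the window, where members had 43.6% and all promoters 51.2% for GGCGC, and members 5.13% and all promoters 6.26% for AGTTTC. The median GC content was 62.0% in members' promoters, against 62.7% in all.

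Beyond the member symbols, 25 genes chosen as other parts of the same pathway were counted. IRF3 peaks lay at 18 in caSmad3 cells (72.0%, 50.6 to 87.9, against 31.1% of all protein-coding genes). In HA cells they lay at 12 (48.0%, 27.8 to 68.7, against 17.0%). Smad3 peaks lay at 9 in caSmad3 cells (36.0%, 18.0 to 57.5, against 10.6% of all genes). In HA cells given polyI:C they lay at 1 (4.0%, against 0.883%). After mock transfection it was 0, which allows up to 13.7% (against 0.245%). NFE2L1 had an IRF3 and a Smad3 peak in caSmad3 cells and none in HA cells, and NFE2L2 had an IRF3 peak in caSmad3 cells alone. VCP, the unfoldase that feeds the proteasome, and the shuttle genes RAD23B and UBQLN1 had IRF3 peaks in both lists and a Smad3 peak in caSmad3 cells. UBB, a ubiquitin gene, had these and also the Smad3 peak of HA cells given polyI:C. ADRM1, a ubiquitin receptor of the base, had a Smad3 peak in caSmad3 cells without an IRF3 peak. SEM1, ECPAS, USP14, UBE3C and DDI2 had no peak in any list.

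The immunoproteasome genes had 3 peaks in all. PSMB8 and PSMB9 had an IRF3 peak in HA cells alone, of 164 bases (chr6:32844441-32844604) and 209 bases (32853594 to 32853802), and PSMB10 had one in caSmad3 cells alone, of 229 bases (chr16:67935807-67936035). With 3 genes, of which PSMB8 and PSMB9 lie close together, no comparison of shares was made.

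Other gene groups of general cell function stood above all protein-coding genes as well. Cytosolic ribosomal protein genes had IRF3 peaks at 93.9% of 82 in caSmad3 cells (86.3 to 98.0) and at 84.1% in HA cells (74.4 to 91.3), and Smad3 peaks at 63.4% in caSmad3 cells (52.0 to 73.8). These intervals lie above those of the proteasome genes. For 77 mitochondrial ribosomal protein genes the shares were 79.2%, 49.4% and 27.3%, and for 38 aminoacyl-tRNA synthetase genes 73.7%, 47.4% and 15.8%, with intervals that overlap those of the proteasome genes. No test was made between these groups.

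**Figure D4:**
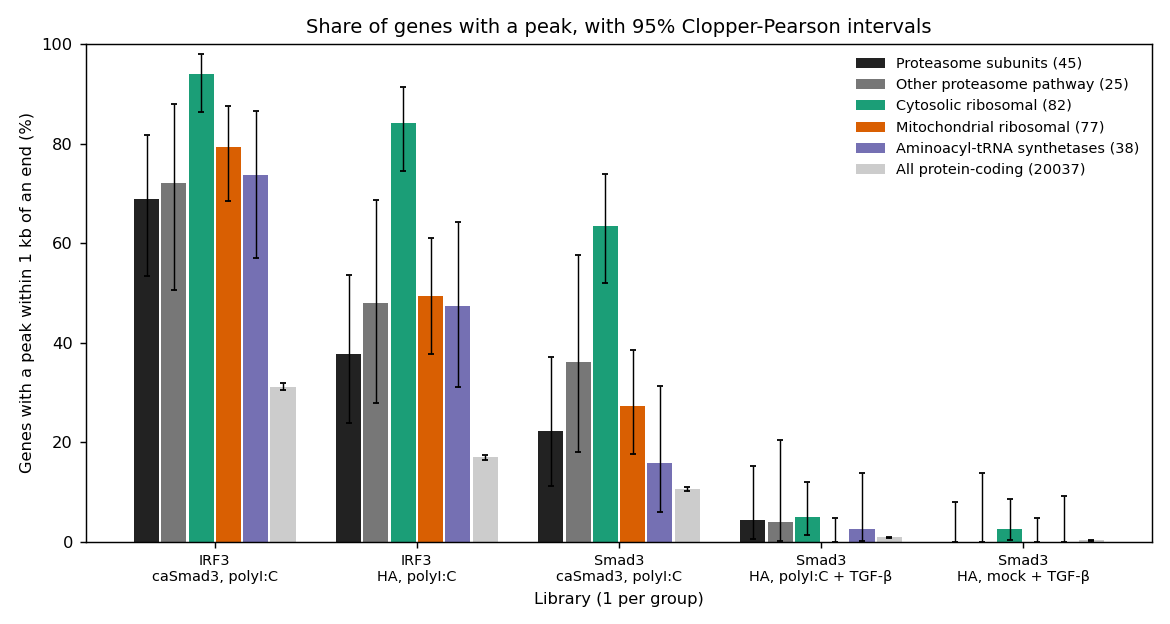
Bars give the percentage of genes of each group with a peak near a gene end (1 kb) in each library, with 95% Clopper-Pearson intervals for counting error, and the number of genes stands in the legend. Proteasome genes reach 68.9% for IRF3 in caSmad3 cells and 37.8% in HA cells, and all protein-coding genes reach 31.1% and 17.0%.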

How the data were processed

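The series measured IRF3 and Smad3 binding by ChIP-seq in 5 libraries of BT549 cells. Per the submitters' processing notes, Bowtie2 2.2.2.6, MACS2 2.1.0 and the build hg38 were used. The sources used here do not give the calling threshold, any input control or how duplicates were handled, and read depth is unknown. The authors deposited 1 list per library with start, end and name of each peak, so the deposited positions in bases are the only values, with no score or count, and precision is limited by the number of genes or peaks.

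Groups came from the labels. Gene spans and promoters came from RefSeq tables of GRCh38.p14, and 39 of 45 members and 15843 protein-coding genes had a promoter, of which the first listed was searched. Counting used Python 3.11.15 with pandas 2.3.3 and scipy 1.17.1, and distances were tested on simulated data. Where a count of 0 is said to allow a share, that share is the upper end of its exact interval. Members, lists and patterns were chosen with earlier results of these data known. Named members were those with an IRF3 peak in HA cells alone, any Smad3 peak, at least 2 peaks in a list or 1 of the 3 widest IRF3 peaks, with PSME1 and PSME2. Others are described more briefly, and some genes of the pathway list are not reported here by name. No test between groups was possible with 1 library each.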

Additional observations from a re-analysis of the deposited data

How the results depend on the processing

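No paired analysis was possible because each group holds 1 library and no result comes from a test. Windows of 500 bases and 10 kb, peak centres, listed starts alone, and members with PSMC3IP and PSME3IP1 or without PSMA8 and PSMB11 kept each count within 1.5 times. Counting only peaks over the gene end itself gave IRF3 at 20 members in caSmad3 cells and 9 in HA cells, 9 in both and 0 in HA cells alone, and Smad3 at 4 in caSmad3 cells; all genes gave 17.4%, 8.48%, 7.46%, 1.02% and 4.07% in this order. The wider 50% of peaks gave 21 members for IRF3 in caSmad3 cells (46.7%, against 19.3% of all genes) and 10 in HA cells (22.2%, against 9.27%). It gave 10 in both (22.2%, against 8.38%) and 0 in HA cells alone (against 0.883%). For Smad3 in HA cells given polyI:C it gave 0 (against 0.384%). Taking only as many of the widest caSmad3 IRF3 peaks as the HA list holds gave 21 members in caSmad3 cells (46.7%, against 19.6% of all genes). As with peaks over the gene end and with the wider 50% of peaks, this was no longer most members. The whole HA list held 17. Both lists then held 13 (28.9%, against 13.4%). There were 8 members in caSmad3 cells alone (17.8%, against 6.25%) and 4 in HA cells alone, PSMA2, PSMB7, PSMC5 and PSMD6 (8.89%, against 3.61%). Over all genes the share in HA cells alone was likewise higher than with the whole list (0.968%). Leaving out peaks within 1 kb of another protein-coding gene, chosen after seeing the data, left 0 in HA cells alone (against 0.704% of all genes). An overlap of at least 50% of both peaks lowered the share of HA IRF3 peaks at members found in caSmad3 cells to 60.0%, against 85.0% with 1 base. That of Smad3 peaks on IRF3 peaks in caSmad3 cells fell to 50.0%, against 10 of 10. With 1 base, peaks at the ends of other genes gave 89.6% and 69.7%. The stricter overlap was not counted for them. In the last 150 bases of the promoters, members and all promoters had matches as follows. GGCGC was in 17 (43.6%, against 51.2%) and AGTTTC in 2 (5.13%, against 6.26%), so that for both the excess over all promoters in the whole window was lost. CCAAT was in 11 (28.2%, against 23.4%), CAGACA in 1 (2.56%, against 7.06%), CACGTG in 1 (2.56%, against 5.32%) and TGANTCA in 0 (against 2.71%). The cause was not tested. Without depth or peak heights, weak binding and low depth cannot be told apart.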

Other observations

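The interferon-type matches of PSME1, PSME2 and PSMG4 were the same 10 letters, GAAAGCGAAA read in the direction of the pattern, which occur in 25 of 15843 promoters of protein-coding genes (0.158%). This was noticed after the matches were listed. The 3 genes lie on chromosomes 14 and 6, and none of the 3 matches lay inside a peak of any list.

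Members on chromosome 17 (PSMB3, PSMB6, PSMC5, PSMD3, PSMD11, PSMD12 and PSME3) all had an IRF3 peak in caSmad3 cells, 5 of 7 in HA cells, and 3 of 7 a Smad3 peak in caSmad3 cells. All protein-coding genes of that chromosome gave 36.6%, 22.2% and 16.3%. On chromosome 14 the 8 members gave 5, 3 and 2, and all genes there 42.0%, 25.6% and 20.3%. On chromosomes 1, 3, 9 and 19 all members (4, 2, 2 and 2) also had an IRF3 peak in caSmad3 cells. All genes there gave 35.3%, 40.5%, 39.7% and 31.4%. The 1 member each on chromosomes 15, 16 and X also had one (all genes 29.7%, 34.3% and 21.5%). The 1, 2 and 1 members on chromosomes 12, 18 and 21 had none (all genes 26.0%, 28.1% and 19.2%). On chromosomes 2, 6, 7, 11 and 20 it was 2 of 3, 1 of 2, 1 of 3, 1 of 3 and 1 of 2. All genes of these 5 gave 28.6%, 30.0%, 24.5%, 22.4% and 41.0%. Counts by chromosome were not among the planned results. Copy number of the chromosomes was not tested.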
